A study of Bos taurus with 12 samples.

Results

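The genes described here are 10 genes of the complement system, C1QA, C1QB, C1QC, C1R, C1S, FCN1, C3, CFB, CFD and VSIG4, in the fat of steers. They were found as every probe set of the Affymetrix bovine array annotated with exactly 1 gene symbol that is among these 10, which gave 12 probe sets of 24016 on the array. C3 was read by 3 probe sets and each of the others by 1. All 12 passed the filter on dim signals and were among the 16811 probe sets tested. The genes were selected on measured values of these same samples. Those were the lower level of VSIG4, CFB and FCN1 in intramuscular fat and the higher level of C1QA and C1QC in Japanese Black subcutaneous fat. The differences between depots, and between breeds in subcutaneous fat, are therefore given as a description, and the breed comparison within intramuscular fat is the one given as a test.

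The steers were Japanese Black (JB), a beef breed known for marbled meat, or Holstein (HS), a dairy breed. From each breed came intramuscular fat (IMF), the marbling within a muscle, and subcutaneous fat (SCF), the layer beneath the skin. The 4 groups were JB IMF, HS IMF, JB SCF and HS SCF, each of 3 samples, and the 12 samples carry the numbers 1 to 3 for IMF and 4 to 6 for SCF. All groups were on energy-rich feed, so no other diet serves as a comparison. The labels give no ages. They do not state whether a group's samples are separate animals, or whether the depots were sampled from the same steers, and the errors therefore cover the spread between samples only, part of which may be technical.

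Complement is a cascade of plasma and tissue proteins that marks particles and cells for uptake by phagocytes. The classical pathway opens when C1q, a bouquet-shaped protein built from the chains of C1QA, C1QB and C1QC, binds its target and switches on the proteases C1r and then C1s. The lectin pathway is opened by pattern recognition proteins such as ficolins, and the alternative pathway by C3, factor B and factor D, the last of which is also known as adipsin for its high expression in mouse adipocytes. The pathways meet at cleavage of C3, whose fragments on a surface are bound by receptors such as VSIG4 (CRIg) of tissue macrophages. Liver makes most plasma complement, while C1q is made chiefly by macrophages and dendritic cells.

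In the RefSeq annotation of the bovine assembly ARS-UCD2.0, several of these genes are neighbours. C1QC and C1QA are next to each other among protein-coding genes of chromosome 2, with C1QB beyond 1 further gene. C1R and C1S are next to each other on chromosome 5, and CFB lies next to C2, a complement gene outside the 10, on chromosome 23. C3 and CFD lie apart on chromosome 7, FCN1 is on chromosome 11 and VSIG4 on chromosome X. RefSeq gives FCN2 and FCNB as other names of bovine FCN1.

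Signals are the linear intensities deposited by the authors. Differences refer to log2(signal + 16) of quantile normalized arrays, come from a linear model over all 12 samples (limma) and are IMF minus SCF or JB minus HS. The added 16 shrinks the differences of dim genes. A gene is read through its brightest probe set. Overlap of groups is judged on deposited signals, and the normalized levels are named where they differ in this. Levels are never compared between genes, because each probe set has its own brightness. The median deposited signal of the arrays was 77.6 to 88.3, except in HS IMF 3, at 58.8. The highest signal of an array was 152036 in HS IMF 3 and 222742 in HS SCF 6, against 17138 to 21870 in the other samples, so deposited signals of these arrays may not share a scale with the rest. HS samples resembled the others of their group less than JB samples did, with mean correlations over all probe sets of 0.862 to 0.944 in HS and 0.963 to 0.975 in JB.

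The 3 C1q chains were all lower in IMF than in SCF, in both breeds. C1QA, the A chain of C1q, had signals of 1199, 1673 and 496 in JB IMF and 720.2, 408 and 593 in HS IMF, against 4838, 11447 and 7257 in JB SCF and 2580.0, 3214 and 3802 in HS SCF. The highest IMF sample lay below the lowest SCF sample. The log2 difference over both breeds, 6 samples against 6, was −2.48 ± 0.33 (SE), 5.59-fold lower in IMF. C1QB, the B chain, had signals of 363, 596 and 194 in JB IMF and 323, 96.4 and 274 in HS IMF, against 1571, 3618 and 2904 in JB SCF and 1246, 1475 and 1210.0 in HS SCF. Here too no IMF sample reached an SCF sample, and the difference was −2.52 ± 0.37 (SE). C1QC, the C chain, had signals of 271, 474 and 149 in JB IMF and 250.5, 152 and 215 in HS IMF, against 1245, 3957 and 2603 in JB SCF and 1087, 1150.3 and 902 in HS SCF. Its depots did not overlap either, and the difference was −2.46 ± 0.34 (SE), close to those of the other chains.

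The 2 proteases of the C1 complex showed smaller depot differences than the chains they bind. C1R, the protease that is activated first, had signals of 1207, 1656 and 1745 in JB IMF and 1288, 989 and 620.5 in HS IMF, against 3195, 3956 and 7519 in JB SCF and 2478, 2338 and 2457 in HS SCF. The difference was −1.29 ± 0.23 (SE), 2.44-fold. JB SCF 6 stood above every other sample. C1S, the protease that cleaves C4 and C2, had signals of 2319, 3261 and 2298 in JB IMF and 2928, 1538 and 1254 in HS IMF, against 5437, 9053 and 8817 in JB SCF and 3366, 4474 and 7311 in HS SCF. The difference was −1.28 ± 0.23 (SE), and the highest IMF sample, JB IMF 2, lay just under the lowest SCF sample, HS SCF 4. The 95% confidence intervals of the log2 differences were −1.78 to −0.79 for C1R and −1.79 to −0.77 for C1S, against −3.33 to −1.70 for C1QB, the widest of the C1q chains. Whether the genes differ in this was not tested.

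FCN1, a ficolin, known in humans as M-ficolin of monocytes and granulocytes, was near the bottom of the signal scale in IMF. Its signals were 19.6, 9.49 and 0.03 in JB IMF and 1.6, 0.01 and 19.7 in HS IMF, against 176, 491 and 192 in JB SCF and 30, 194 and 512 in HS SCF. The SCF samples therefore spread over a wide range, with HS SCF 4 close to the IMF samples, and the depots did not overlap. The difference was −3.13 ± 0.51 (SE). With the IMF signals this low, the size of that difference depends on the 16 added to each signal.

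The genes of the alternative pathway and its central component differed in the same direction. CFB, factor B, which supplies the protease of the alternative C3 convertase, had signals of 259, 1348 and 568 in JB IMF and 214, 223 and 108 in HS IMF, against 3082, 7896 and 10192 in JB SCF and 3680.1, 1458 and 1421 in HS SCF. The depots did not overlap, with JB IMF 2 the closest to SCF, and the difference was −3.22 ± 0.43 (SE), 9.33-fold. CFD, factor D, which cleaves factor B, had signals of 358, 1072 and 416 in JB IMF and 735, 202 and 229.8 in HS IMF, against 1593, 4088 and 2444 in JB SCF and 964, 2054 and 1232 in HS SCF. JB IMF 2 lay above HS SCF 4, so the depots overlapped for CFD, although within each breed every IMF sample was below every SCF sample. The difference was −1.90 ± 0.37 (SE), 3.74-fold.

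C3, the protein on which all pathways converge, was measured 3 times over. The brightest probe set had signals of 434, 567 and 871 in JB IMF and 1840.3, 559.9 and 233 in HS IMF, against 1488, 3581 and 3180.0 in JB SCF and 2436, 2819 and 1812 in HS SCF. HS IMF 1 stood apart from the other IMF samples and reached into the SCF range, which made C3 the other gene whose depots overlapped. The difference was −1.79 ± 0.37 (SE). The other C3 probe sets were dimmer, with IMF signals of 38.4 to 312 against SCF signals of 396 to 1075, and of 52.8 to 284 against 299.9 to 641. Neither of them overlapped between the depots in deposited signal, although the dimmer one did on normalized levels. HS IMF 1 was again the highest IMF sample on both, and the differences were −2.25 ± 0.39 and −1.63 ± 0.31 (SE). The platform annotation derives 2 of the 3 C3 probe sets from the same source sequence, so they are not independent readings.

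VSIG4, the macrophage receptor for fragments of C3, had signals of 99.8, 201 and 67.3 in JB IMF and 39.6, 55 and 40.4 in HS IMF, against 497, 1457 and 1602 in JB SCF and 382, 555 and 2794 in HS SCF. HS SCF 6 was far above the other HS SCF samples, and no IMF sample reached an SCF sample. The difference was −3.31 ± 0.46 (SE), 9.89-fold, with an interval of −4.31 to −2.30 that takes in the estimates of CFB and FCN1.

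**Figure D1:**
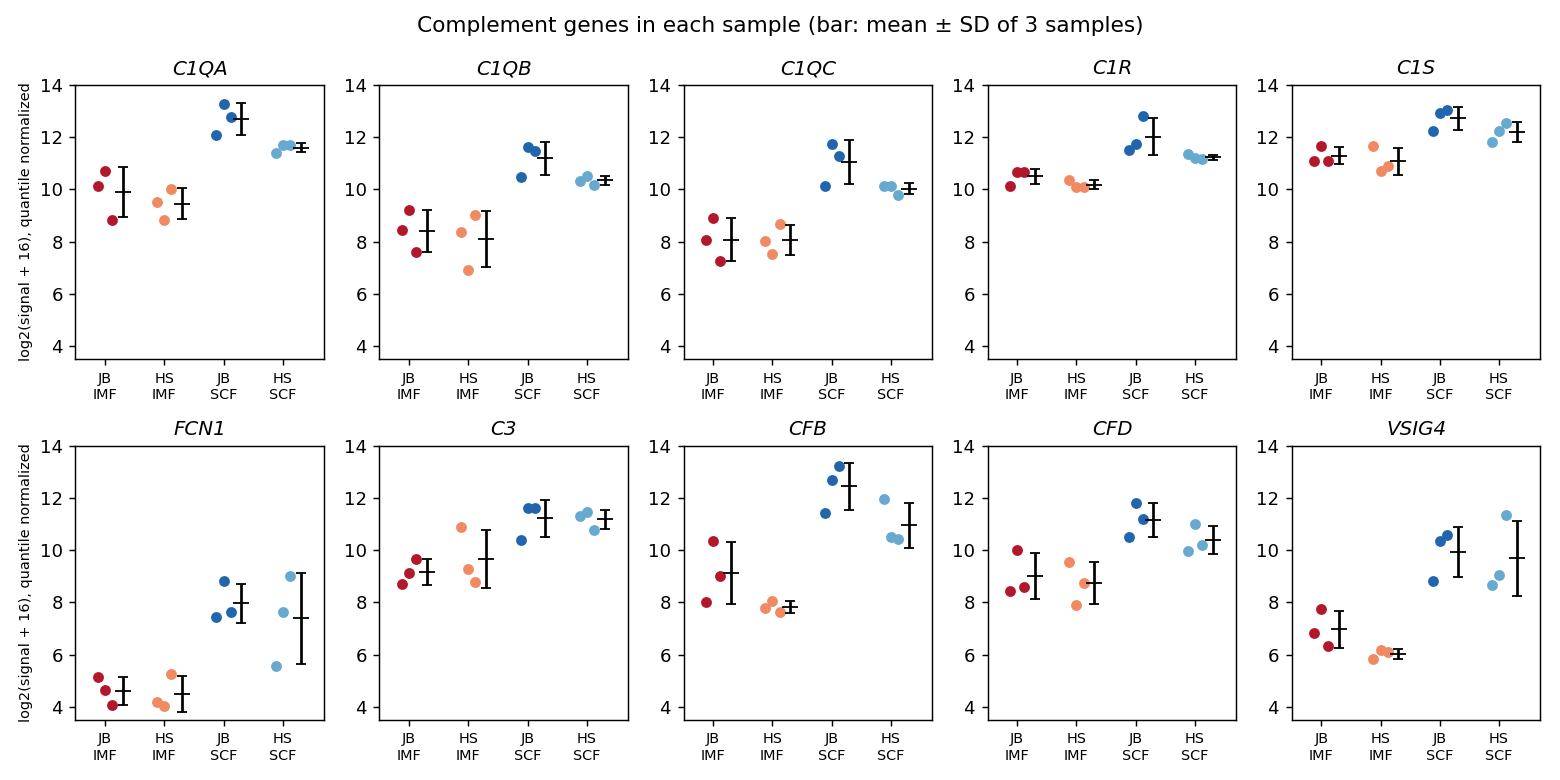
Quantile normalized level, log2(signal + 16), of the 10 genes in each of the 12 samples by group, each gene through its brightest probe set. Points are samples and bars are the mean ± SD of 3 samples. The IMF groups lie below the SCF groups in every panel, with single samples of C3 and CFD reaching into the SCF range.

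Over both breeds, 10 of 10 genes were past the threshold, a Benjamini-Hochberg adjusted p under 0.05 in limma, in the direction lower in IMF, where 6.33% of all tested probe sets were. For 8 of 10 genes the 6 IMF samples did not overlap the 6 SCF samples, against 3.77% of all tested probe sets that were lower in IMF without overlap. The median difference of the genes was −2.47, beside −0.06 over all tested probe sets. On normalized levels the count without overlap was also 8 of 10, against 3.13%. The ratio of 3′ to 5′ GAPDH control signal, which increases with RNA degradation, ranged over 1.19 to 2.40 for IMF, against 1.87 to 4.06 for SCF, the highest being HS SCF 5, and its part in the depot differences was not tested. Because VSIG4, CFB and FCN1 were known to differ between the depots when the genes were chosen, these counts describe the genes and support nothing further. In these pieces of tissue, fewer cells of a type and less RNA per cell cannot be told apart.

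Within JB the log2 differences between IMF and SCF ran from −3.35 (FCN1) to −1.44 (C1S), with a median of −2.80, and within HS from −3.65 (VSIG4) to −1.06 (C1R), with a median of −2.05. In JB, 9 of 10 genes were past the threshold, against 0.916% of all tested probe sets in that direction, and all 10 genes were without overlap, against 19.2%. In HS, 6 of 10 were past it, against 1.52%, and 9 of 10 without overlap, against 15.5%. The gene not past it in JB was C3, at an adjusted p = 0.0555 by limma on its brightest probe set. The other C3 probe sets had 0.0233 and 0.0246 there. C3 was also the gene with overlap in HS, on its brightest probe set only. The count in JB was 2 without each of JB IMF 1, JB IMF 3, JB SCF 5 and JB SCF 6. The count in HS was 2 without each of HS IMF 2, HS SCF 4, HS SCF 5 and HS SCF 6, and 3 without each of HS IMF 3, JB IMF 1 and JB SCF 5. The number of calls within a breed thus changes with single samples, some of them outside the compared groups. The direction did not change: each gene stayed lower in IMF within both breeds whichever sample was left out. The differences nearest to no change were −1.12 for C1R in JB and −0.93 for C1S in HS.

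**Figure D2:**
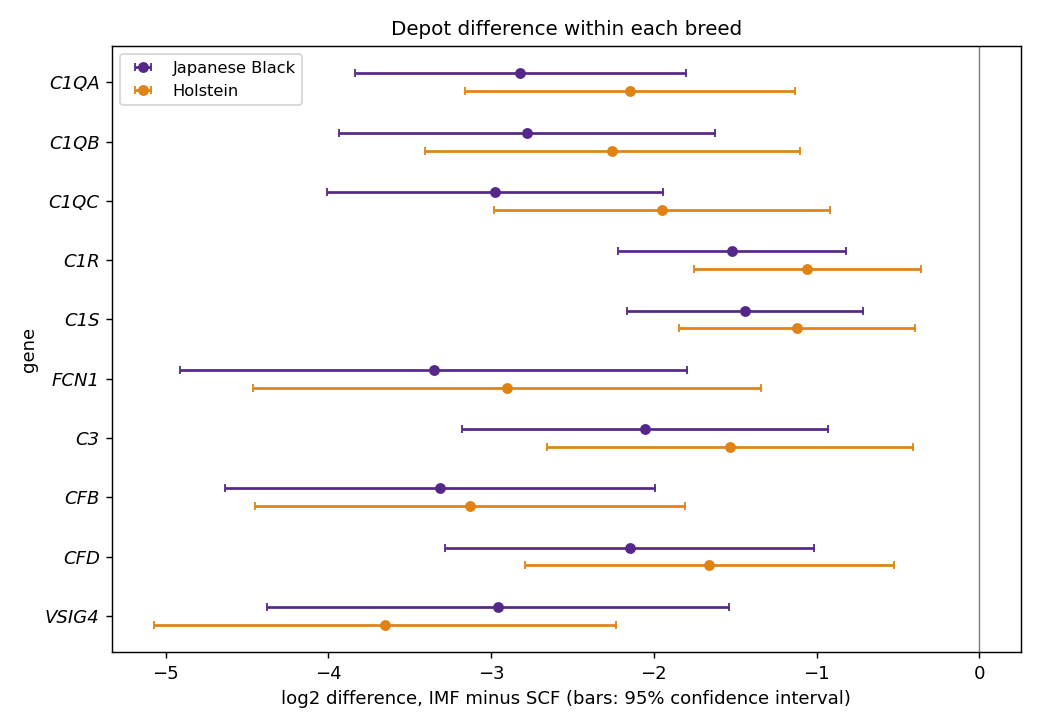
Log2 difference between depots, IMF minus SCF, for the 10 genes within Japanese Black and within Holstein. Points are estimates over 3 samples against 3 and bars are 95% confidence intervals. Every interval of the 10 genes lies below 0 in both breeds.

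The other genes of the complement system moved in more than one direction between the depots. Of 40 further complement genes listed, 31 were on the array with 1 symbol and 22 were bright enough to be tested. Of these 22, 6 were past the threshold as lower in IMF and 1 as higher, where 6.33% of all tested probe sets were lower and 4.66% higher, and the median difference was −0.47. The genes lower in IMF were C2, the classical pathway relative and neighbour of CFB (−1.82 ± 0.30 SE, limma, Benjamini-Hochberg adjusted p = 0.00259), CFP, or properdin, which stabilizes the alternative convertase (−1.81 ± 0.30, 0.00254), and C4BPA, the alpha chain of the inhibitor C4b-binding protein (−1.89 ± 0.35, 0.00570). They also included ITGB2, the beta chain shared by the leukocyte complement receptors CR3 and CR4 (−1.93 ± 0.40, 0.00984), COLEC12, a scavenger receptor of the collectin family (−1.17 ± 0.27, 0.0170), and C4A, component C4 (−1.42 ± 0.41, 0.0440).

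C2 signals reached from 49 to 145 over IMF samples, against 233 to 653 over SCF samples, without overlap. C4BPA, ITGB2 and COLEC12 did not overlap between the depots either, while CFP and C4A did. C5AR2, a receptor for C5a that does not couple to G proteins, was the gene higher in IMF, by 1.46 ± 0.39 (SE) at adjusted p = 0.0345. Its signals were 257 to 2617 in IMF, with a median of 1476, and 239.9 to 767 in SCF, with a median of 541, so the depots overlapped.

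Among regulators that protect host cells and late components, several were not past the threshold. The membrane regulators CD46 and CD55 had differences of −0.08 ± 0.21 and −0.07 ± 0.41 (SE). SERPING1, the C1 inhibitor that restrains C1r and C1s, had a difference of −0.84 ± 0.38 (SE). Of the terminal components, C7 had −1.19 ± 0.43 and C9 −0.07 ± 0.20 (SE). The lectin pathway proteases MASP1 (0.26 ± 0.19 SE) and MASP2 (0.36 ± 0.30 SE) were dim in both depots, and MBL2 was too dim to be tested. The genes of this paragraph were chosen after their values were seen.

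**Figure D3:**
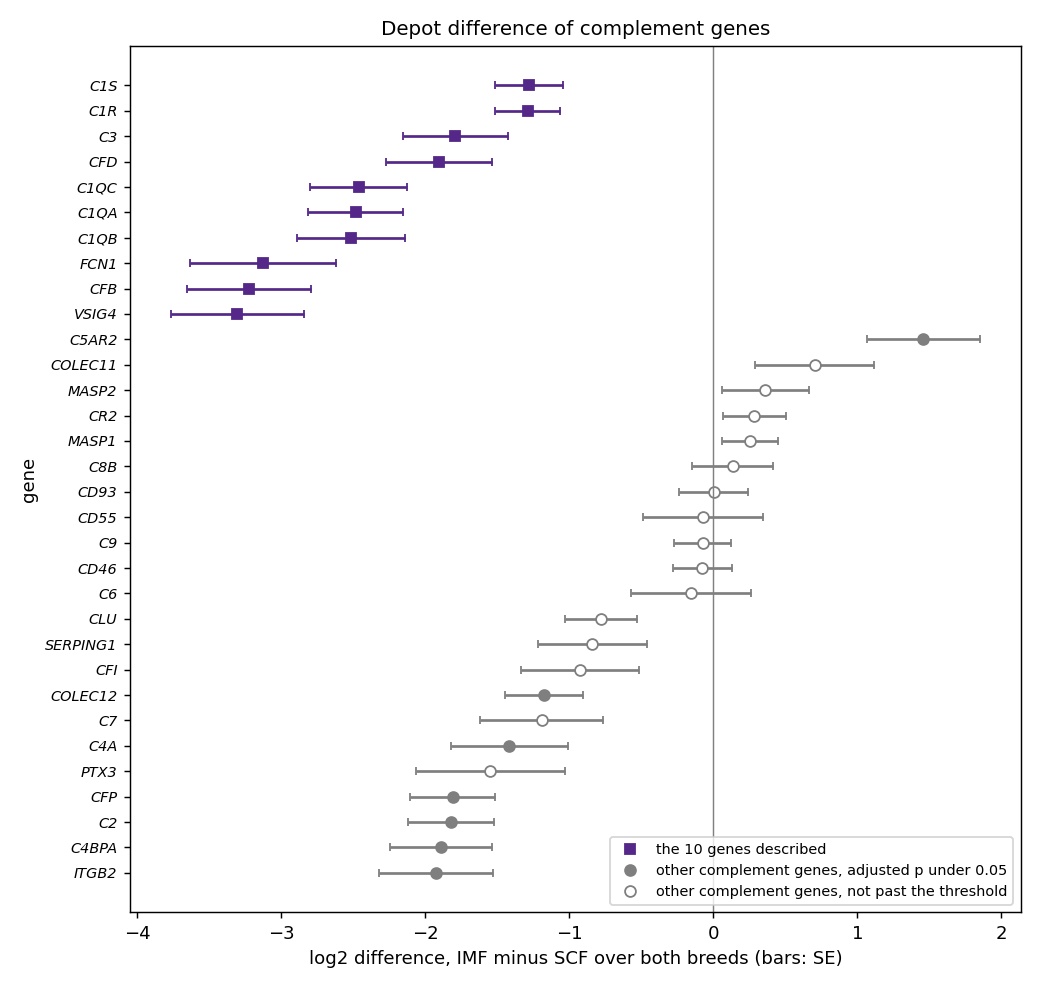
Log2 difference between depots over both breeds, IMF minus SCF, for the 10 genes described (squares) and the 22 other complement genes tested (circles, filled where the adjusted p was under 0.05). Bars are SE. The 10 genes lie between −3.31 and −1.28, and the other genes between −1.93 and 1.46.

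Markers of several cell types moved with the depot. Their lists were chosen with earlier results of these data known. Over all tested probe sets, 6.33% were past the threshold as lower in IMF and 4.66% as higher. Of 15 macrophage markers listed, 12 were on the array and tested, and all 12 had lower levels in IMF, 10 of them past the threshold, with a median difference of −1.63. Summed over the markers, the signal was 3323 to 8520 in IMF and 12723 to 26185 in SCF. The brightest were CTSS, a lysosomal protease, F13A1, a factor XIII subunit, and LAPTM5, a lysosomal membrane protein, with differences of −1.42 ± 0.29, −2.02 ± 0.37 and −1.14 ± 0.26 (SE). None of the 12 markers was at 0 in any sample, and CD163, MRC1 and MARCO were not analysed here. Of 3 granulocyte and monocyte markers tested, 2 were past the threshold as lower in IMF, and their sum ran between 185 and 2086 for IMF, against 768 and 4650 for SCF. Of 3 lymphocyte markers tested, 1 was past the threshold as lower in IMF, JCHAIN, the joining chain of antibodies made by plasma cells (−2.29 ± 0.54 SE), while the T cell markers CD3E and CD2 had −0.12 ± 0.32 and 0.25 ± 0.35. The signals of all 5 lymphocyte markers on the array summed to between 255 and 648 for IMF, against 501 and 1975 for SCF. This sum includes MS4A1 and CD79A, too dim to be tested. MS4A1 was at 0.75 to 14.9 in IMF and 18.4 to 67.3 in SCF, and CD79A at 2.85 to 10.9 and 4.3 to 19.8. The part of these cells in the depot differences of the complement genes was not tested.

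Adipocyte markers were bright in both depots, among them FABP4, the fatty acid binding protein of fat cells, at 11591 to 15285 in IMF, against 15400 to 17308 in SCF. All 6 tested had negative differences, with a median of −0.80, and none passed in limma after Benjamini-Hochberg adjustment, while 5 had an unadjusted p under 0.05. Their summed signal was 18760 to 42146 in IMF and 40862 to 52132 in SCF. Of the 9 fibroblast and progenitor markers, 4 were past the threshold as lower in IMF, against 6.33% of all tested probe sets. The median over the 9 was −0.67. Skeletal muscle markers moved the other way. Of the 8 tested, 6 were past the threshold as higher in IMF, against 4.66% of all tested probe sets. The sum of the muscle markers lay between 48524 and 88984 for IMF, against 4352 and 22380 for SCF. HS SCF 5 had the highest SCF sum. The part of muscle RNA in the lower levels of the complement genes was not tested. Of 5 hepatocyte markers tested, 0 passed in limma after Benjamini-Hochberg adjustment, and 1 had an unadjusted p under 0.05. Endothelial markers gave the same counts, 0 and 1 of 5 tested, with a median difference of −0.06, as over all tested probe sets.

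The breeds were compared within IMF to ask how JB and HS differ in the fat that gives marbling. None of the 10 genes passed the test there. By limma with Benjamini-Hochberg adjustment 0 of 10 genes were past the threshold, where 0.0238% of all tested probe sets were, and 0 of 10 had an unadjusted p under 0.05, against 10.2% of all. FCN1 was near the bottom of the signal scale in every IMF sample and passed the filter through its SCF samples, so its breed difference in IMF carries little information. Without it 0 of 9 were past the threshold and 8 of 9 were positive. Over the 10 genes the median difference was 0.30, beside 0.10 over all tested probe sets, and 9 of 10 genes were positive, against 57.8% of all.

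CFB came closest to a breed difference in IMF. Its signals of 259, 1348 and 568 in JB did not overlap the 214, 223 and 108 in HS, but on normalized levels JB IMF 1 lay below HS IMF 2. The log2 difference was 1.31 ± 0.61 (SE), with a 95% confidence interval of −0.01 to 2.63 and an adjusted p = 0.485 by limma. VSIG4 was without overlap on both scales, at 67.3 to 201 in JB and 39.6 to 55 in HS, with a difference of 0.94 ± 0.65 (SE, interval −0.49 to 2.36, adjusted p = 0.591). In deposited signal the breeds were apart in IMF, in either direction, for 2 of 10 genes and for 16.8% of all tested probe sets. On normalized levels 1 of 10 was apart with JB higher, against 7.31% of all in that direction.

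For the C1q chains the differences in IMF were 0.43 ± 0.47 (C1QA), 0.32 ± 0.53 (C1QB) and 0.0043 ± 0.47 (C1QC, all SE), with adjusted p of 0.727, 0.818 and 0.997 by limma. Their JB and HS samples were interleaved. The intervals, −0.58 to 1.45 for C1QA and −1.03 to 1.04 for C1QC, reach about 1 log2 unit in either direction for C1QC and further upward for C1QA. C1R had a difference of 0.32 ± 0.32 (SE), C1S of 0.21 ± 0.33, FCN1 of 0.13 ± 0.72 and CFD of 0.28 ± 0.52, with adjusted p from 0.713 to 0.950. C3 was the only one of the 10 genes with a negative value, −0.48 ± 0.52 (SE, adjusted p = 0.722), and its other probe sets gave −0.15 ± 0.54 and −0.78 ± 0.44. The sign of the difference in IMF turned when 1 sample was left out for 5 genes. Without JB IMF 2 it was −0.07 for C1QB, −0.41 for C1QC and −0.22 for CFD, and without HS IMF 2 it was −0.27, −0.26 and −0.13 for the same genes and −0.11 for FCN1. Without HS IMF 1 it was 0.14 for C3, −0.03 for C1QC and −0.03 for FCN1, and without JB IMF 1 it was −0.14 for FCN1.

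In SCF every one of the 10 genes had a positive difference between JB and HS, with a median of 0.78, beside 0.0029 and 50.4% positive over all tested probe sets. By limma with Benjamini-Hochberg adjustment 0 of 10 were past the threshold, where 0.00595% of all were, and 3 of 10 had an unadjusted p under 0.05, against 3.56%. C1QA had signals of 4838 to 11447 in JB SCF and 2580.0 to 3802 in HS SCF, and differed by 1.11 ± 0.47 (SE). C1QC differed by 1.03 ± 0.47, C1QB by 0.85 ± 0.53 and C1R by 0.78 ± 0.32 (SE). For these 4 genes, the C1q chains and C1R, every JB SCF sample was above every HS SCF sample in deposited signal. Breeds were apart in SCF on this scale, in either direction, for these 4 of 10 genes and for 12.2% of all tested probe sets. On normalized levels C1QB and C1QC overlapped, which left C1QA and C1R apart, 2 of 10 genes with JB higher, against 5.81% of all in that direction. As C1QA and C1QC were known to differ here when the genes were chosen, nothing is read from these counts.

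CFB had the largest difference between the breeds in SCF among the 10 genes, 1.49 ± 0.61 (SE), with signals of 3082, 7896 and 10192 in JB SCF and 3680.1, 1458 and 1421 in HS SCF. HS SCF 4 lay above JB SCF 4, so the breeds overlapped. CFD differed by 0.77 ± 0.52, C1S by 0.52 ± 0.33, FCN1 by 0.58 ± 0.72 and VSIG4 by 0.24 ± 0.65 (SE), all with overlap. C3 was nearly level between the breeds on its brightest probe set, at 0.04 ± 0.52 (SE), and on the others at 0.52 ± 0.54 and 0.06 ± 0.44. The sign in SCF turned when 1 sample was left out for C3, FCN1 and VSIG4. Without HS SCF 4 it was −0.34 for FCN1 and −0.27 for VSIG4. C3 was at −0.17 when JB SCF 5 or JB SCF 6 was left out and at −0.18 when HS SCF 6 was, and VSIG4 at −0.09 without JB SCF 6 and −0.08 without HS SCF 5.

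JB SCF 4 had the lowest normalized level of its group for 10 of 10 genes. The mean log2 level of the macrophage markers was also lowest there, 9.48 against 10.41 in JB SCF 5 and 10.23 in JB SCF 6. The 3 HS SCF samples had 9.59, 9.62 and 9.81. In IMF, JB IMF 2 had the highest level of its group for 8 of 10 genes, all but FCN1 and C3, and the highest macrophage mean of that depot, 9.05, beside 8.20 and 7.56 in the other JB IMF samples and 8.03 to 8.28 in HS IMF. Several other marker means ranked these samples the same way. In JB SCF 4 the granulocyte and monocyte, fibroblast and progenitor, lymphocyte and hepatocyte means were also lowest of the group. Its adipocyte mean was the highest. In JB IMF 2 the granulocyte and monocyte, adipocyte, fibroblast and progenitor, and lymphocyte means were also highest of the group. Its skeletal muscle mean was the lowest. The part of macrophage or other cell content in these differences between samples was not tested. Of the 12 macrophage markers, 10 had positive differences between JB and HS in SCF and 8 in IMF. Over all tested probe sets, 50.4% were positive in SCF and 57.8% in IMF. The macrophage medians were 0.39 in SCF and 0.02 in IMF. None of the 12 passed in limma after Benjamini-Hochberg adjustment, nor had any an unadjusted p under 0.05, in either depot.

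**Figure D4:**
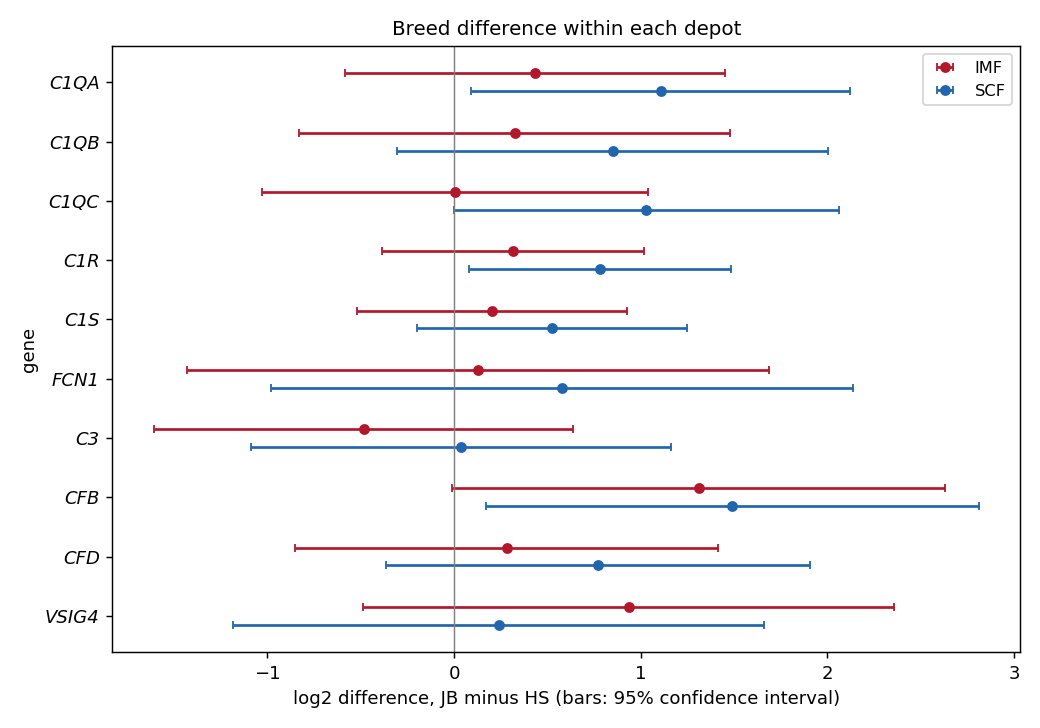
Log2 difference between breeds, JB minus HS, for the 10 genes within IMF and within SCF. Points are estimates over 3 samples against 3 and bars are 95% confidence intervals. Only the SCF intervals of C1QA, C1R and CFB exclude 0, before any adjustment for the number of probe sets.

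The breed difference was then compared between the depots, as the difference in IMF minus that in SCF. It was negative for 9 of 10 genes, against 45.8% of all tested probe sets, with a median of −0.48, and positive for VSIG4 (0.70 ± 0.92 SE). The largest was that of C1QC, −1.03 ± 0.67 (SE, 95% confidence interval −2.49 to 0.43). By limma with Benjamini-Hochberg adjustment 0 of 10 genes were past the threshold, with adjusted p of 0.990 to 0.992, and 0 had an unadjusted p under 0.05. Of all tested probe sets 0% were past it, and 2.14% had an unadjusted p under 0.05. The SCF side of this comparison was known when the genes were chosen.

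The order of the 4 group means was the same for 9 of 10 genes, with HS IMF lowest, then JB IMF, HS SCF and JB SCF. C3 had the IMF groups the other way round. How many of all probe sets share this order was not counted. Its depot part and its breed part in SCF partly restate how the genes were chosen. Its breed part in IMF was only 0.0043 for C1QC, and for FCN1 it rests on signals near the bottom of the scale. On these normalized levels the JB IMF and HS IMF groups, neighbours in that order, overlapped for 9 of 10 genes, all but VSIG4. The JB SCF and HS SCF groups overlapped for 8 of 10, all but C1QA and C1R. Of all tested probe sets, 7.31% were likewise apart with JB higher in IMF and 5.81% in SCF. Whether the genes apart exceed these shares was not tested. For C1QA the mean level was 9.89 ± 0.95 in JB IMF and 11.6 ± 0.18 in HS SCF (normalized log2 level, mean ± SD, n = 3 each), without overlap.

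Among the other complement genes, 0 of 22 were past the threshold between the breeds in IMF and 0 of 22 in SCF in limma after Benjamini-Hochberg adjustment, while 1 of 22 in IMF and 3 of 22 in SCF had an unadjusted p under 0.05, against 10.2% and 3.56% of all tested probe sets. CD55, a membrane protein that speeds the decay of convertases, had differences of 1.47 ± 0.59 in IMF and 1.55 ± 0.59 in SCF (SE). In SCF, 18 of 22 were positive, against 50.4% of all tested probe sets, with a median of 0.42. The smallest p there were those of PTX3, a soluble pattern recognition protein that binds C1q (2.06 ± 0.73), CD55 and C7, of the membrane attack complex (1.45 ± 0.60), with an adjusted p = 0.9997 in limma for PTX3, CD55 and C7 alike. In IMF, 12 of 22 were positive, against 57.8% of all tested probe sets, with a median of 0.02. After CD55 the smallest p in IMF were those of CR2, the B cell receptor for C3d (−0.64 ± 0.31), and COLEC11, a collectin of the lectin pathway (−1.08 ± 0.59).

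The genes differed in how they varied among samples of 1 group, which the choice of genes did not use. Each level was set as its deviation from the mean of its own group, and Pearson's r was taken over the 12 samples. These r are descriptions, since the 12 deviations share 4 means and come from the same arrays. The C1q chains went together, with r = 0.91 for C1QA and C1QB, 0.93 for C1QA and C1QC, and 0.91 for C1QB and C1QC. C1R and C1S, also neighbours, had r = 0.50. C1R had r = 0.04 with C1QA and 0.66 with CFB.

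The other genes gave weaker or opposite values. Through its brightest probe set, C3 had r = −0.03 with C1QA and −0.06 with VSIG4, and 0.60 with C1S. It had 0.13 with both C1QB and C1QC. The dimmest C3 probe set had r = 0.28 with C1QA, 0.55 with C1QB and 0.44 with C1QC. The remaining C3 probe set had −0.11, −0.04 and −0.0048 with the same chains. The values of C3 with the C1q chains thus depend on the probe set. The brightest C3 probe set had r = 0.93 and 0.71 with the other C3 probe sets. FCN1 had r = 0.69 with VSIG4 and −0.43 with CFB. FCN1 and VSIG4 were both lowest in HS SCF 4 and highest in HS SCF 6 among HS SCF samples, and the mean log2 level of the 3 granulocyte and monocyte markers was 7.89 in HS SCF 4, 8.51 in HS SCF 5 and 9.66 in HS SCF 6. The macrophage mean rose in that order too, at 9.59, 9.62 and 9.81, while the lymphocyte mean fell, at 8.25, 7.29 and 7.07. The other marker lists followed neither order. Every r of FCN1 includes its IMF samples, whose signals were near the bottom of the scale. CFD had r = 0.79 with C1S and 0.68 to 0.74 with the C1q chains.

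**Figure D5:**
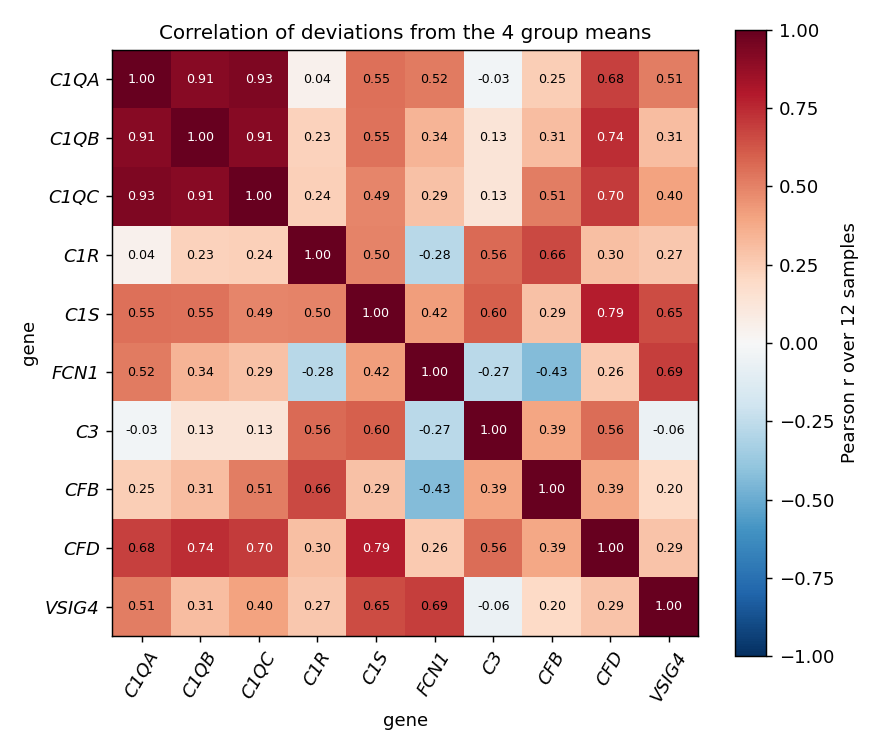
Pearson's r between the 10 genes over the 12 samples, computed on deviations from the 4 group means, each gene through its brightest probe set. The block of C1QA, C1QB and C1QC holds values of 0.91 to 0.93, while C3 and FCN1 have values near or below 0 with several genes.

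Set against the mean of the macrophage markers in the same way, C1QC had r = 0.85, C1QA 0.85, VSIG4 0.68 and C1QB 0.66. CFD had 0.58, CFB 0.55, C1S 0.53, FCN1 0.37, C1R 0.22 and C3 −0.01. For C3, only the brightest probe set was set against the marker means. Against the mean of the fibroblast and progenitor markers, C3 had r = 0.64, CFB 0.55 and C1QA 0.0029. Against the adipocyte mean, CFD, the adipsin gene, had r = 0.10 and C1QA 0.52. With 12 samples such values are loose.

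The genes most like each complement gene over the 12 samples, by Pearson's r without removing group means, largely carry the depot difference. Those most like C1QA were FERMT3, an integrin activator of blood cells (r = 0.99), PYCARD, the inflammasome adaptor ASC (0.97), and CD86, a costimulatory molecule of antigen-presenting cells (0.96). The most alike genes were ranked through any of their tested probe sets, so a gene with several had more chances. F13A1, the factor XIII subunit made by macrophages, was among the 3 most like C1QB and C1QC (r = 0.96 and 0.97, the same probe set). A different F13A1 probe set was among the 3 most like CFB (0.94). VSIG4 was most like ATRAID (0.98), TDH, L-threonine dehydrogenase (0.98), and DOK2, an adaptor of blood cells (0.97). The list of FCN1 held CFP, properdin (0.95), beside TACC3 and STK10. C1R was most like CCL8, a chemokine for monocytes (0.95). C1S was most like SLC39A11, a zinc transporter (0.97), and its list also held PSMB10, an immunoproteasome subunit (0.97). CFD was most like BIN2 (0.96), C3 like LFNG, a glycosyltransferase acting on Notch (0.93), and CFB like SQOR, of sulfide oxidation (0.94).

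With the group means removed, the genes most like C1QC were F13A1 (r = 0.97), the gene named LOC504773 (0.96) and CSF1R, the macrophage growth factor receptor (0.93). The F13A1 probe set here was again a different one. VSIG4 kept ATRAID and TDH (both r = 0.94) among its 3 most like genes, behind SIT1, and C1S kept SLC39A11 (0.97) and PSMB10 (0.95). For C1QA the genes were PEPD, COL5A3 and MDFI, with r of 0.96, 0.94 and 0.92, and for C3 INPP1, TNK2 and ANKRD29, each with r = 0.95. Such ranks are extremes among all named genes tested, over 12 samples.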

How the data were processed

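Total RNA of 12 fat samples was hybridised to Affymetrix bovine arrays. The authors deposited 1 linear intensity per probe set and array, made with GCOS 1.1.1 and Affymetrix Expression Console 1.1 per the submitters' processing notes. How probe signals were summarized is not given in the sources used here. In all the deposited table holds 24128 probe sets, among them 112 controls, and 2303 values of 0. Here 16 was added to each intensity, log2 was taken and arrays were quantile normalized. Controls and the 30% of probe sets with the lowest mean were then left out. Linear models with 4 group means (limma 3.58.1 in R 4.3.3, 8 residual degrees of freedom) gave differences, and p-values were Benjamini-Hochberg adjusted over all 16811 probe sets, with a threshold of 0.05. The fit was tested on simulated data. With 3 arrays a group, their number limits the precision.

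The 10 genes and all gene lists were chosen with earlier results of these data known. Named were all probe sets of the 10 genes. From the other complement genes, those past the threshold (at most 6 in each direction) were named, or the 3 with the smallest p where none was. From each marker list at most the 3 brightest genes were named, and for each of the 10 genes the most alike were sought among the 3 genes with the highest r. Exceptions are stated in the text. Probe sets take their gene from the platform annotation, where 13292 have 1 symbol, 86 several and 10638 none. Neighbouring genes come from RefSeq (ARS-UCD2.0), with no coordinates used. Alternatives were other filters, normalizations, a pseudocount of 1, array weights, fits of the compared groups alone, and fits without single samples. Same-numbered JB and HS samples had deviations from their group means that correlated at −0.28 to 0.12. With 3 samples a group, these values cannot decide whether the numbers pair the breeds. Pairing of IMF with SCF samples was not examined.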

Additional observations from a re-analysis of the deposited data

Results flagged for a closer look

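C1R in SCF had 1 sample far from the others. JB SCF 6 had a signal of 7519, beside 3195 and 3956 in the other JB SCF samples and 2338 to 2478 in HS SCF. On normalized log2 levels its gap to the nearest sample was 0.654 of the range of the 6 SCF samples, above Dixon's 95% critical value for 6 samples. Of 24 sets of 6 samples checked this way, 1 was singled out. Each set joined both breeds, and the sets were not independent, so how many chance would single out is not known. Without JB SCF 6, C1R differed by −1.09 between the depots over both breeds and by 0.38 between the breeds in SCF.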

How the results depend on the processing

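Over both breeds, all 190 values of the 10 genes, other C3 probe sets included, under the alternatives and with samples left out, were lower in IMF and past the threshold. FCN1 gave no value with 50% of probe sets left out or a pseudocount of 1. Within HS the count of genes past the threshold, 6, became 3 with a pseudocount of 1, 0 with array weights, 2 with only the compared groups and 2 without HS IMF 3 and HS SCF 4. Within JB the count, 9, was 6 with a pseudocount of 1 and 7 to 10 under the other alternatives. With 1 sample left out it was 2 to 7 within HS and 2 to 10 within JB. No alternative brought any of the 10 genes past the threshold between the breeds (0 in IMF, 0 in SCF and 0 for breed by depot, which sets the breed differences of the depots against each other). The sign turned for FCN1 in IMF with median centring (−0.025), for C1QC in IMF with a pseudocount of 1 (−0.000752) and for CFD in IMF with array weights (−0.070). For breed by depot it turned for CFB in the values as deposited (0.0022) and for FCN1 with array weights (0.38). Without HS IMF 3 and HS SCF 4 it turned for FCN1 in breed by depot (0.86), FCN1 in SCF (−0.35) and VSIG4 in SCF (−0.26). The causes were not tested.

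With 1 sample left out, the breed difference in IMF was −0.27 to 0.80 for C1QB, −0.41 to 0.41 for C1QC, −0.14 to 0.52 for FCN1, −0.91 to 0.14 for C3 and −0.22 to 0.68 for CFD. In SCF it was −0.34 to 1.38 for FCN1, −0.18 to 0.44 for C3 and −0.27 to 1.07 for VSIG4. Breed by depot was −1.25 to 0.47 for FCN1, −0.94 to 0.11 for C3, −0.80 to 0.38 for CFB and −0.13 to 1.21 for VSIG4. With the sample number as a replicate block, 0 genes were past the threshold between the breeds in IMF, in SCF and for breed by depot, and no call of these comparisons changed. Of the 6 numbers, 1 matched its own number best, which is too little to decide on pairing. The IMF signals of FCN1 lie near the bottom of the scale, which limits its differences.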
